A study of Mus musculus with 9 samples.

Results

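The homeostatic cytokine receptor chains are the surface proteins through which resting and memory T cells read interleukins 2, 4, 6, 7, 15, 21 and 27. The chains were chosen by symbol from a list of 10, of which 9 had a row among the 18188 genes listed for each library (Il2ra, Il2rb, Il7r, Il15ra, Il4ra, Il21r, Il6ra, Il6st and Il27ra). Il2rg was not analysed here. The data are poly(A) RNA sequencing of CD8+ T cells from mouse spleens, with 5 WT libraries and 4 libraries labelled Rig1 KO, a knockout of the gene for the cytosolic RNA sensor RIG-I. The study's title names RIG-I as a brake on the antitumour immunity of these cells, so the comparison asks how the knockout libraries differ from WT. Strain, age, treatment, the kind of knockout and the way the cells were purified are not given in the sources used here.

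As background, these receptors have no enzyme of their own. A ligand brings together 2 or more chains whose tails carry Janus kinases (JAKs), and the JAKs phosphorylate STAT transcription factors. The common gamma chain (the product of Il2rg) is shared by the receptors for interleukins 2, 4, 7, 15 and 21, whereas gp130 (the product of Il6st) is shared by those for interleukins 6 and 27. In CD8+ T cells interleukin-7 and interleukin-15 sustain naive and memory cells, interleukin-2 drives expansion after activation, and interleukin-6 and interleukin-27 shape how they differentiate.

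The libraries held 15496262 to 17893558 recovered reads. Ddx58, the older symbol of the targeted gene, was at 65.1 ± 2.0 TPM in WT (SD, n = 5) and 33.3 ± 2.04 TPM in Rig1 KO (SD, n = 4), and the groups did not overlap. TPM is the number of reads per gene length, scaled to the same total in every library. The defining genes of CD8+ T cells were present, with 8 listed markers summing to 4996 to 5738 TPM in the WT libraries and 6927 to 7568 TPM in Rig1 KO, and all 8 were called higher. Markers of other cells also differed. The summed level of 9 B cell markers ran from 165 to 1159 TPM in the WT libraries and from 92.8 to 199 TPM in Rig1 KO (0 higher and 7 lower of 8 tested), and WT 5 held the highest value. The 8 natural killer cell markers summed to 181 to 265 TPM in the WT libraries and 519 to 559 TPM in Rig1 KO (6 higher, 0 lower), the 7 basophil and mast cell markers to 15.1 to 58.7 and 222 to 424 TPM (7 higher, 0 lower), and the 4 platelet markers to 180.1 to 242 and 31.2 to 39.3 TPM (0 higher, 4 lower). The 5 erythroid markers summed to 73.8 to 196 TPM in WT and 175 to 318 TPM in Rig1 KO (3 higher, 0 lower of 4 tested), the 8 neutrophil markers to 105 to 352 and 157 to 227 TPM (2 higher, 2 lower of 7), and the 7 dendritic cell markers to 16.3 to 69.7 and 59.3 to 68.4 TPM (1 higher, 0 lower of 6). The dendritic cell marker called higher was Itgax (18.8 ± 10.7 and 55.5 ± 5.66 TPM). Siglech, Xcr1 and Clec9a had lower means in Rig1 KO and were not called. Of 3 CD4 T cell markers 0 were higher and 1 lower, and of 5 regulatory T cell markers 1 was higher and 1 lower. Some called markers met the filter of 1 TPM in 4 or more libraries through the group where they were high. These include Fcer1a and Cd200r3 (highest WT library 0.670 and 0.388 TPM) and Nrp1 (WT median 0.753 TPM), through Rig1 KO. Pax5 (Rig1 KO median 0.220 TPM) did so through WT, and such calls add little. No marker of these lists was at 0 in every library, and the part of these cells in the results was not tested beyond the B cell markers. In bulk samples fewer cells of a type and less RNA per cell cannot be told apart.

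Of the 9 measured receptor chains, all 9 passed the filter on low values, 5 rose, 1 fell and 3 did not pass the test. Il7r, Il15ra, Il27ra, Il2rb and Il6ra rose in Rig1 KO and Il4ra fell, while Il2ra, Il21r and Il6st did not pass. Among all 10540 tested genes 45.7% were called, 33.5% higher and 12.2% lower. The chains thus lay above that background with 66.7% called, a difference that rests on few genes and was not tested. The TPM ranges of the groups did not overlap for the same 6 chains, against 38.1% of all tested genes (28.0% higher and 10.1% lower). The median log2 fold change of the 9 chains was 0.38, beside 0.13 for all tested genes. The 8 CD8+ T cell markers, all called higher, ran from 0.20 (Cd3d) to 0.55 (Cd8a). That range holds Il2rb (0.47) and Il6ra (0.38) and ends near Il27ra (0.56). Whether the rises of these chains go beyond that of T cell genes in general was not tested. Scaling by median ratios, which brings the median of all genes to 0.01, changed the split over all genes from 3526 higher and 1291 lower to 2492 higher and 2267 lower (45.2% called, 23.7% higher and 21.5% lower). Among the chains the split was then 5 higher and 2 lower, as Il21r passed. Scaling the recovered reads to library size also gave 5 higher and 2 lower, against 44.1% of all genes called, 26.2% higher and 17.9% lower. With the B cell marker mean in the model 4 chains were called higher and 0 lower, as Il6ra and Il4ra no longer passed, against 27.3% of all genes, 21.5% higher and 5.79% lower. That mean ran from 3.31 to 5.73 in WT and from 2.38 to 3.49 in Rig1 KO, so it largely goes with genotype. The SE of Il6ra rose from 0.0645 to 0.111 and that of Il4ra from 0.0584 to 0.0945. The log2 fold change of Il6ra also moved from 0.38 to 0.31 and that of Il4ra from -0.30 to -0.20. The lost calls thus come with lower precision and with smaller changes. A part of B cells in them cannot be told apart from the genotype. With the replicate number as a block 5 were higher and 1 lower, against 45.5% of all genes, 34.4% higher and 11.1% lower.

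**Figure D1:**
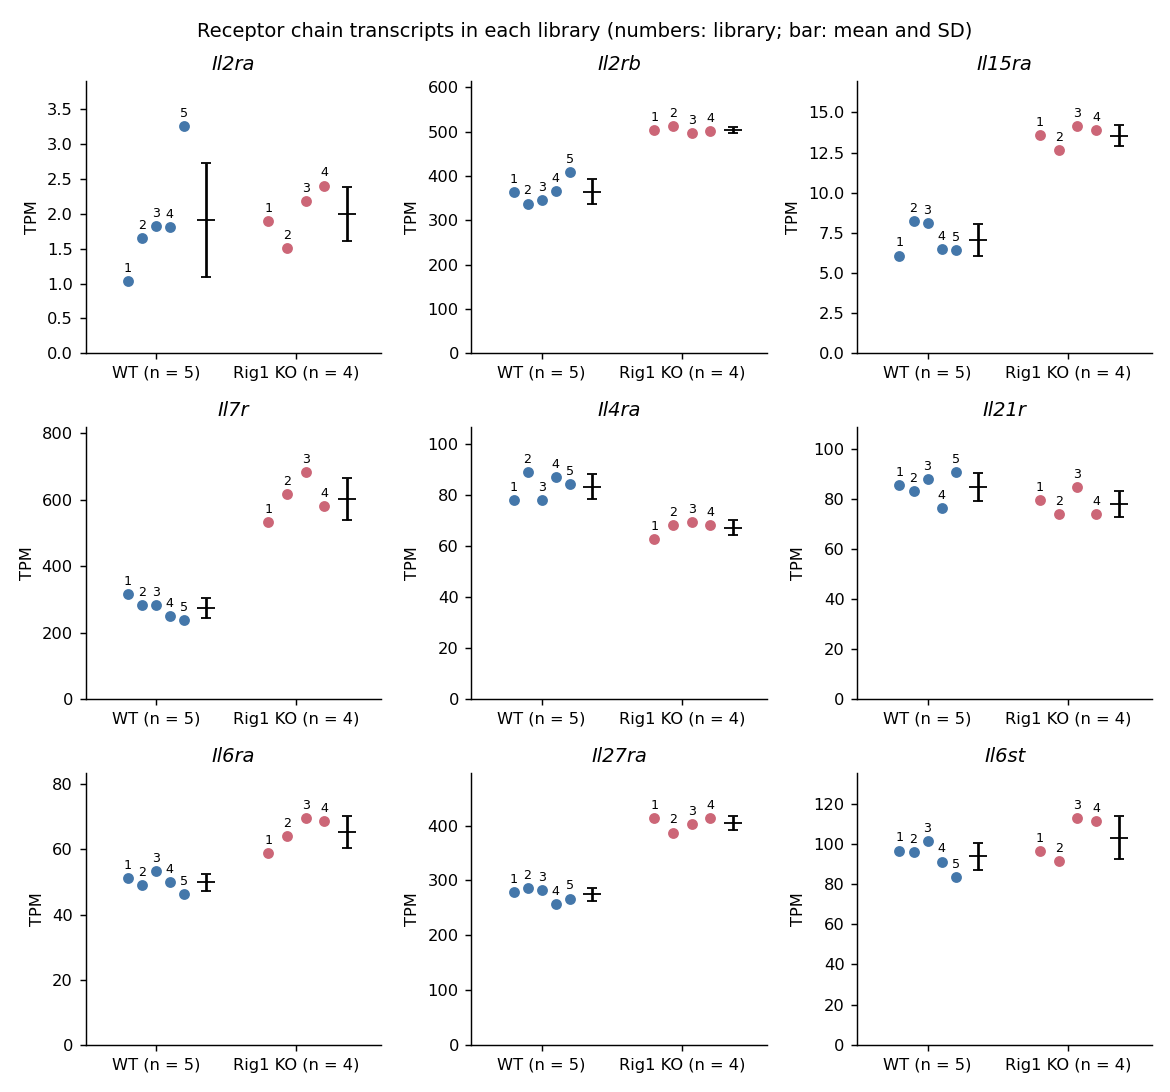
Each panel plots TPM (vertical axis, from 0) of 1 receptor chain in the 5 WT and 4 Rig1 KO libraries, with library numbers above the points and a bar for the group mean and SD. Every Rig1 KO point lies above every WT point for Il2rb, Il15ra, Il7r, Il6ra and Il27ra and below for Il4ra, and the groups overlap for Il2ra, Il21r and Il6st.

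The chain of the interleukin-7 receptor showed the largest difference. Il7r encodes the alpha chain, which binds interleukin-7 and, with another partner, thymic stromal lymphopoietin. Its level was 317, 284, 282, 250.2 and 237 TPM in WT 1 to 5 and 534, 617, 683 and 581 TPM in Rig1 KO 1 to 4. The lowest Rig1 KO library was thus well above the highest WT library, and WT 4 and WT 5, the WT libraries with the most B cell marker transcript, were lowest. Il7r rose 2.20-fold, with a log2 fold change of 1.14 (SE 0.0941, limma adjusted p = 6.35e-06), and it was higher in all 4 Rig1 KO libraries. Permuting the group labels exactly over TPM gave a two-sided p = 0.0159, the lowest value possible for 5 against 4 libraries, and the other 5 called chains gave the same p. Once the mean of the B cell markers entered the model, the log2 fold change was 1.05 (95% interval 0.69 to 1.41, adjusted p = 0.0016).

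The promoter windows of Il7r, Il15ra and Il4ra are shown because these chains had the largest rises and the fall. They run from 250 bases before to 50 after the annotated start, from RefSeq on GRCm38.p6, at chr15:9529827-9530126 (minus strand), chr2:11705043-11705342 (plus strand, the first of the windows listed for this gene) and chr7:125552021-125552320 (plus strand). Capitals mark matches to AGGAAG, a pattern of sites bound by ETS factors, or its reverse CTTCCT, and to TTCNNNGAA, the STAT motif. Other forms of the ETS site were not searched for, so an unmarked stretch may still hold one.
Il7r: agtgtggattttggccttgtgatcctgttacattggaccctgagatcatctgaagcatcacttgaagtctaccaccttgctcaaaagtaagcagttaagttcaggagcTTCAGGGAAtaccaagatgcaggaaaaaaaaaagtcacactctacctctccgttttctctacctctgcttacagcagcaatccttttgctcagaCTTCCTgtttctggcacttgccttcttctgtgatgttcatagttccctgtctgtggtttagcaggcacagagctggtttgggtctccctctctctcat
Il15ra: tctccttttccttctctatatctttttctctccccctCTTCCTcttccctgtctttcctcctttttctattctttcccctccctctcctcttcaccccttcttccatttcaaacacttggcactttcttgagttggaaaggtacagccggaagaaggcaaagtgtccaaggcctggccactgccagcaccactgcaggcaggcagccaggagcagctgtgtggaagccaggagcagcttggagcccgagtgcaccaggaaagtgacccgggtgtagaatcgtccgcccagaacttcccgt
Il4ra: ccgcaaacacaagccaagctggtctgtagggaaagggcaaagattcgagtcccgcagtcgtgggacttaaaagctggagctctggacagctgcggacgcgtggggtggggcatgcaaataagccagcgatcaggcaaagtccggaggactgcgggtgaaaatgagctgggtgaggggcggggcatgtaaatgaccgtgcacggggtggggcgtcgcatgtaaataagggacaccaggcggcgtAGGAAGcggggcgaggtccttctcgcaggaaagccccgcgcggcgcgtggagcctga

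Of the 9 measured chains, 7 had a promoter window in the RefSeq table, and 5 of these held the AGGAAG pattern on either strand (Il2ra, Il15ra, Il6ra, Il4ra and Il7r), chains that rose, fell or did not pass. That pattern stood in 35.4% of 32851 promoter windows, a share counted by window and not by gene. The other window listed for Il15ra held no match. The STAT motif was found for Il7r alone among the 7, and in 8.30% of all windows. GTAAACA or its reverse, the FOXO motif, stood in the Il21r window and in 3.65% of all windows. A motif of interferon regulatory factors, searched for after the windows had been seen, was in 0 of the 7 and in 3.44% of all windows. The motifs overlapped nowhere in these windows, and a match describes the letters, not binding.

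Il2rb, the beta chain that carries signals of both interleukin-2 and interleukin-15, was high in every library and higher in Rig1 KO. Its level was 365, 338, 345, 367 and 409 TPM in the WT libraries and 503, 512, 497 and 502 TPM in Rig1 KO. The knockout libraries lay within a narrow band (SD 6.37 TPM, against 27.5 TPM in WT). Il2rb rose 1.38-fold, with a log2 fold change of 0.47 (SE 0.0585, limma adjusted p = 0.000117). Natural killer cells also carry much of this chain, and their summed markers did not overlap between the groups either. Much of that sum was Eomes, which is also listed below as a regulator (138 of 228 TPM in WT and 299 of 537 TPM in Rig1 KO, means). Of the 8 markers, Tyrobp and Klra4 were not called (limma adjusted p = 0.341 and 0.0707), and the other 6 were higher. The part of such cells in the rise of Il2rb cannot be told apart from the genotype.

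Il15ra encodes the alpha chain that holds interleukin-15 and presents it to cells with the beta chain. Its level was 6.09, 8.22, 8.09, 6.53 and 6.46 TPM in the WT libraries and 13.6, 12.6, 14.1 and 13.9 TPM in Rig1 KO. All 4 knockout libraries were above every WT library, and the recovered reads ran from 262 in WT 5 to 631 in Rig1 KO 1. Il15ra rose 1.92-fold, with a log2 fold change of 0.86 (SE 0.0943, limma adjusted p = 4.87e-05). Myeloid cells also carry Il15ra. Their 8 markers summed to 430.1 to 985 TPM in the WT libraries and 878 to 1004 TPM in Rig1 KO, with 2 called higher and 0 lower, and their part in the result was not tested.

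Il2ra, the alpha chain (CD25) that makes the interleukin-2 receptor high in affinity and appears on activated and regulatory T cells, had the fewest reads of the 9 chains. Its level was 1.04, 1.65, 1.82, 1.81 and 3.25 TPM in the WT libraries and 1.90, 1.51, 2.18 and 2.40 TPM in Rig1 KO, from 79 to 229 reads per library. The highest value came from WT 5, which also had the highest summed markers of B cells, of CD4 T cells (66.0 TPM, against 19.5 to 29.6 TPM in the other WT libraries) and of regulatory T cells (59.1 TPM, against 34.2 to 42.4 TPM). The log2 fold change was 0.07, with a 95% interval of -0.34 to 0.49 (limma adjusted p = 0.772), and the call was not made in either direction. Its sign turned under median ratio scaling (-0.0078) and without WT 1 (-0.045), and without WT 5 it was 0.22. With the B cell marker mean in the model it was 0.52 (95% interval -0.10 to 1.13, limma adjusted p = 0.18).

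Il4ra, the alpha chain for interleukin-4 and interleukin-13, was the chain that fell. Its level was 78.1, 89.1, 78.2, 87.1 and 84.6 TPM in the WT libraries and 62.8, 68.4, 69.6 and 68.5 TPM in Rig1 KO. No knockout library reached the lowest WT library. Il4ra fell 1.24-fold, with a log2 fold change of -0.30 (SE 0.0584, limma adjusted p = 0.00176). The call was lost once the mean of the B cell markers entered the model (-0.20, 95% interval -0.41 to 0.01, adjusted p = 0.143).

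Il21r, the chain for interleukin-21, was at 85.7, 83.4, 88.1, 76.6 and 90.8 TPM in the WT libraries and 79.6, 74.1, 85.0 and 74.0 TPM in Rig1 KO. The ranges overlapped, since Rig1 KO 1 lay above WT 4 and Rig1 KO 3 above WT 2 and WT 4, and the log2 fold change was -0.12 (95% interval -0.26 to 0.03, limma adjusted p = 0.16). After median ratio scaling it was called lower (-0.24, adjusted p = 0.0122), and likewise with recovered reads scaled to library size (-0.19, adjusted p = 0.0173), so its call depends on the scaling.

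**Figure D2:**
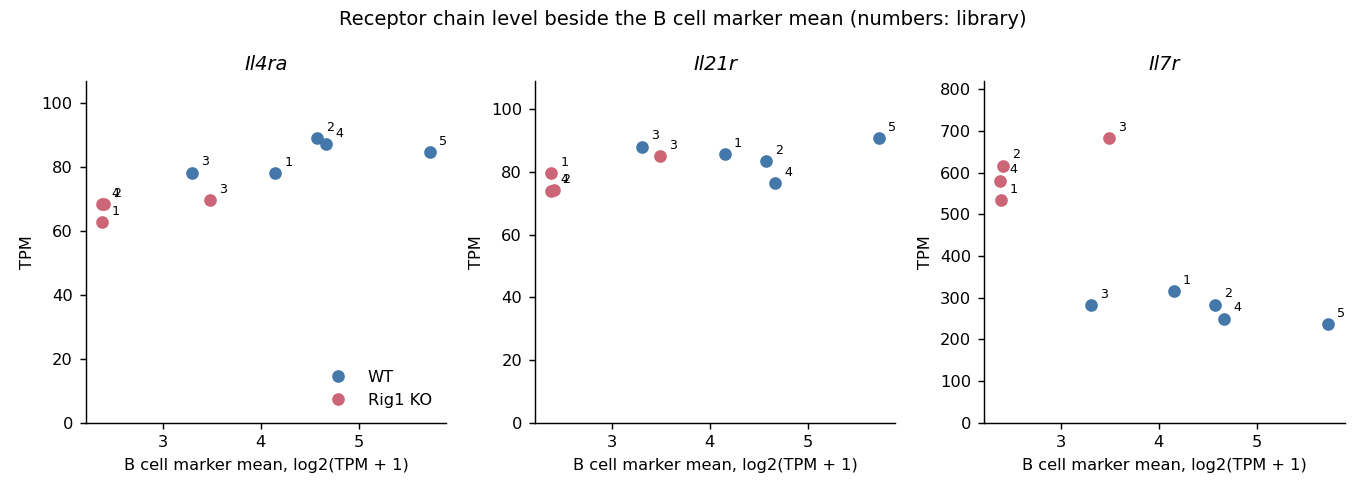
TPM of Il4ra, Il21r and Il7r (vertical axes, from 0) is plotted against the mean log2(TPM + 1) of the B cell markers (horizontal axis) for each numbered library, WT in blue and Rig1 KO in red. Rig1 KO 3 and WT 3 have close marker means (3.49 and 3.31), and at that position Il7r stands at 683 and 282 TPM.

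Among the measured receptor chains that work with gp130, Il6ra and Il27ra rose, and Il6st, the gene of gp130, did not pass. Il27ra, which pairs with gp130 to bind interleukin-27, was at 279, 287, 283, 256 and 267 TPM in the WT libraries and 414, 387, 402 and 414 TPM in Rig1 KO. The groups were separated by a wide gap, and Il27ra rose 1.47-fold (log2 fold change 0.56, SE 0.0497, limma adjusted p = 1.12e-05). Il27ra overlaps Palm3 on the other strand, and reads in the shared stretch cannot be assigned without strand. Il2ra, Il4ra and Il6ra each overlap 1 predicted gene in the GENCODE annotation, and reads there may be shared. Palm3 itself measured 140.4 ± 22.8 TPM for WT and 159.8 ± 26.2 TPM for Rig1 KO (limma adjusted p = 0.283).

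Il6ra, the alpha chain for interleukin-6, was at 51.1, 49.0, 53.3, 49.9 and 46.3 TPM in the WT libraries and 58.7, 64.0, 69.6 and 68.6 TPM in Rig1 KO. All 4 knockout libraries lay above WT 3, the highest WT library. Il6ra rose 1.31-fold (log2 fold change 0.38, SE 0.0645, limma adjusted p = 0.000874). Once the mean of the B cell markers entered the model, Il6ra stood at 0.31 and no longer passed (adjusted p = 0.0634).

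Il6st was at 96.7, 96.2, 101, 91.2 and 83.6 TPM in the WT libraries and 96.5, 91.4, 113 and 111 TPM in Rig1 KO. Rig1 KO 3 and 4 were above every WT library, whereas Rig1 KO 1 and 2 lay within the WT range. The log2 fold change of 0.13 (95% interval -0.04 to 0.31, limma adjusted p = 0.195) was close to the median of all genes and was 0.0082 after median ratio scaling.

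**Figure D3:**
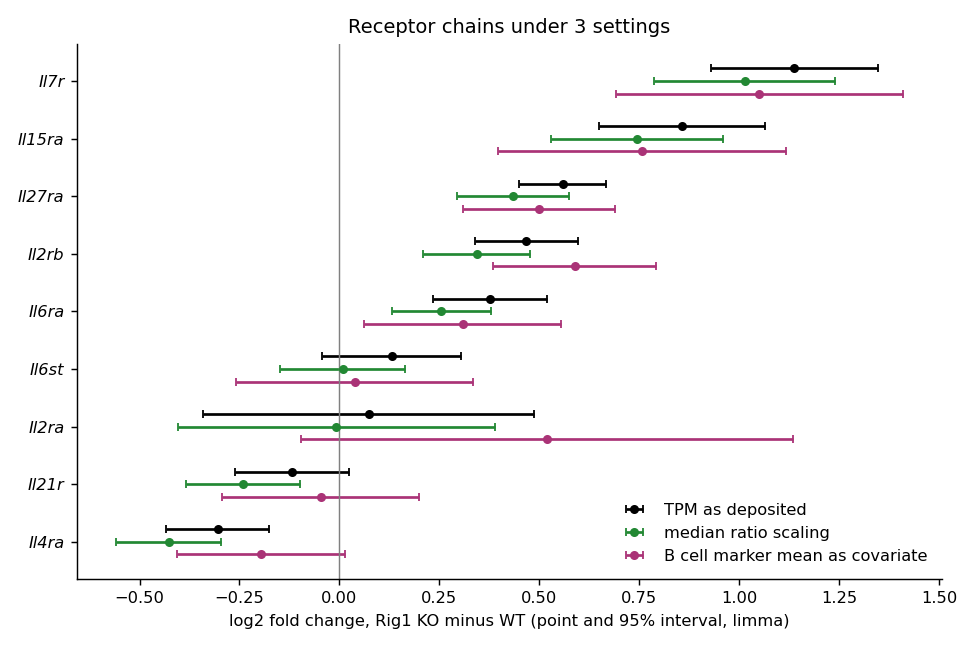
The log2 fold change (horizontal axis, Rig1 KO minus WT) of each receptor chain is shown with its 95% interval from limma under TPM as deposited (black), median ratio scaling (green) and a model with the mean of the B cell markers (purple). Il7r, Il15ra, Il27ra, Il2rb and Il6ra lie above 0 under all 3, whereas the interval of Il4ra reaches 0.01 with the covariate.

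Ratios between partner chains within a library do not depend on how libraries are scaled. Of 8 pairs planned, 4 could be computed, since the others need Il2rg. The log2 ratio of Il15ra to Il2rb was -5.70 ± 0.288 in WT and -5.22 ± 0.0887 in Rig1 KO, a 1.39-fold shift towards Il15ra. That of Il6ra to Il6st was -0.91 ± 0.0482 and -0.66 ± 0.0948, a 1.19-fold shift towards Il6ra. That of Il27ra to Il6st was 1.55 ± 0.0790 and 1.98 ± 0.133, a 1.34-fold shift towards Il27ra. The groups did not overlap for these 3 ratios, and each gave p = 0.0159 in an exact permutation test (two-sided, Benjamini-Hochberg adjusted p = 0.0212 over the 4 ratios).

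The ratio of Il2ra to Il2rb was -7.67 ± 0.528 in WT and -8.00 ± 0.306 in Rig1 KO on the log2 scale. Its groups overlapped (exact permutation p = 0.302, adjusted p = 0.302), and they no longer did without WT 1, whose ratio of -8.46 was the lowest. Il6ra and Il27ra thus differed between the groups relative to Il6st, and no other partner of gp130 was set against it. Il11ra1, another such partner, went from 3.29 ± 0.376 to 2.67 ± 0.209 TPM and was not called (limma adjusted p = 0.0726). After median ratio scaling Il11ra1 was called lower (limma adjusted p = 0.0146). For Il15ra to Il2rb the groups were barely apart (WT 2 at -5.36 and Rig1 KO 2 at -5.34), and with 1 TPM added to each value they overlapped, with a difference of 0.39 (exact permutation p = 0.0317, two-sided, adjusted p = 0.0423).

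**Figure D4:**
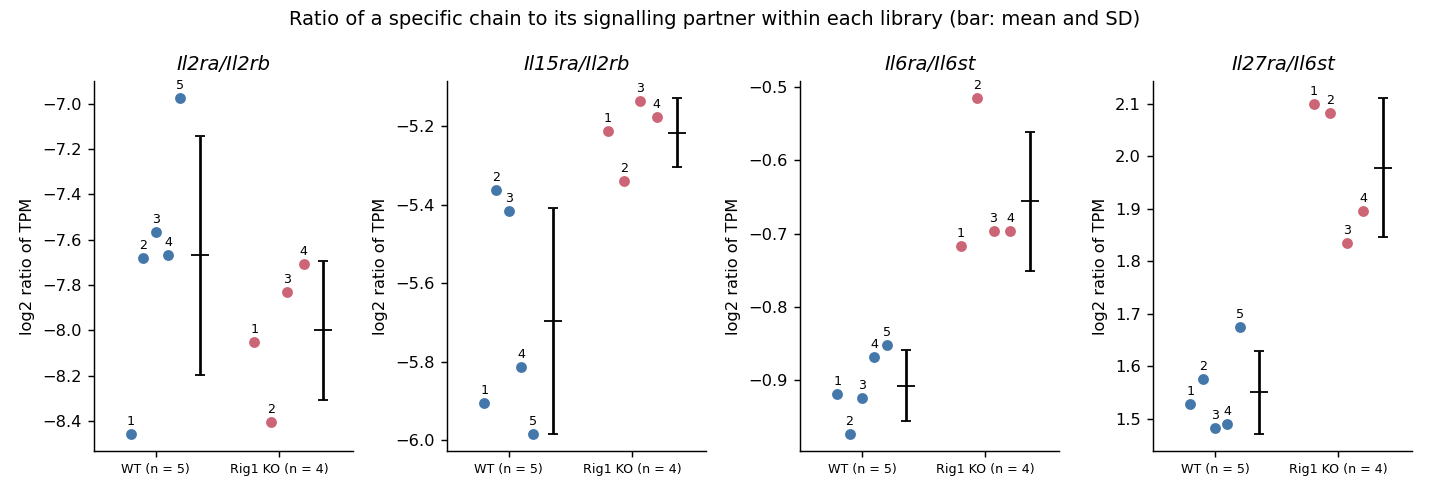
The log2 ratio of TPM between a ligand-specific chain and its signalling partner (vertical axes, not from 0) is plotted for each numbered library, with the group mean and SD as a bar. The Rig1 KO points lie above all WT points for Il15ra to Il2rb, Il6ra to Il6st and Il27ra to Il6st and overlap them for Il2ra to Il2rb.

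Deposited TPM uses lengths that include introns, so levels of different chains were compared after dividing the recovered reads by exon length and scaling as for TPM, here called exon TPM. In WT, Il7r (529 ± 64.2 exon TPM) and Il2rb (502 ± 32.7) led and overlapped each other. Il27ra (356 ± 20.0) and Il21r (284 ± 17.8) followed, each apart from its neighbours. Il6st (143 ± 11.4) and Il4ra (140.2 ± 8.98) overlapped, and Il6ra (105 ± 5.95), Il15ra (17.1 ± 2.56) and Il2ra (6.21 ± 2.58) came last, in that order and without overlap.

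In Rig1 KO, Il7r stood alone at the top at 1135 ± 108 exon TPM, followed by Il2rb at 677 ± 23.9 and Il27ra at 511 ± 14.4. Il21r (255 ± 14.6), Il6st (153 ± 12.3), Il6ra (133 ± 8.07) and Il4ra (110.3 ± 4.51) came next, so Il6ra ranked above Il4ra, the reverse of WT. Il15ra (31.8 ± 0.899) and Il2ra (6.31 ± 1.10) were again lowest, and no neighbours in this order overlapped. The sources used here do not say whether reads in introns were counted. The lengths behind TPM came within 1% of the whole gene span for 96.6% of genes, so such reads may well be included. They would raise the exon TPM of a gene with long introns. By deposited TPM the WT order began with Il2rb (365), Il27ra (274.3) and Il7r (274.0), so the order depends on the length used.

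The genes around the receptors were counted by role from a list of 68 symbols, of which 67 had a row and 52 passed the filter. Of the 52, 21 rose, 7 fell and 24 did not pass, with a median log2 fold change of 0.17 beside 0.13 for all tested genes. These counts lie close to the shares over all tested genes (33.5% higher and 12.2% lower), which are also the background for the counts by role below. After median ratio scaling 12 rose and 15 fell, against 23.7% higher and 21.5% lower over all genes, and with reads scaled to library size 19 rose and 14 fell, against 26.2% and 17.9%. With the B cell marker mean in the model 15 rose and 5 fell, against 21.5% higher and 5.79% lower over all genes. Without Rig1 KO 4 there were 15 higher and 7 lower. Over single libraries left out, 3993 to 4788 of all genes were called, beside 4817 with all libraries. Most ligands lay below the filter (9 of 15), among them Il2, Il7, Il15 and Il21. Of the 6 ligands tested, 2 rose. Il27, a subunit of interleukin-27, went from 0.731 ± 0.438 to 1.76 ± 0.406 TPM (limma adjusted p = 0.0115), and Osm, a cytokine of the interleukin-6 family, from 24.7 ± 3.89 to 33.4 ± 3.84 TPM (adjusted p = 0.0134). Il27 met the filter only through Rig1 KO, where its lowest library was at 1.29 TPM, against a WT median of 0.558 TPM. Its call thus rests on a gene admitted by the group where it was high. With no filter Il27 also passed (limma adjusted p = 0.0233). Of 4 tested partner chains 0 rose and 1 fell. Crlf2, which joins Il7r in the receptor for thymic stromal lymphopoietin, fell from 85.9 ± 8.15 to 66.1 ± 3.27 TPM (adjusted p = 0.00207). The calls of Il27, Osm and Crlf2 were lost with the B cell marker mean in the model (adjusted p = 0.292, 0.0752 and 0.0921). Their log2 fold changes were then 0.46, 0.53 and -0.31, beside 0.70, 0.43 and -0.37 without it.

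Of the 4 Janus kinases, 2 rose and 0 fell, and after median ratio scaling 1 rose (Jak1) and 1 fell (Jak2, -0.13, limma adjusted p = 0.0316). Jak1, which binds gp130 among other chains, rose from 126 ± 3.31 to 158 ± 10.9 TPM (limma adjusted p = 0.000773). Jak3, the kinase of the common gamma chain, rose from 231 ± 11.8 to 259 ± 12.2 TPM (adjusted p = 0.0309). That change of 0.16 on the log2 scale lay near the median of all genes, was 0.039 after median ratio scaling, and did not pass without WT 1, 2 or 3 or Rig1 KO 1, 3 or 4 (adjusted p = 0.0596 to 0.0865). Among the STAT genes, Stat4, best known downstream of interleukin-12, rose 1.72-fold from 5.63 ± 0.413 to 9.71 ± 1.34 TPM. Stat5a (41.1 ± 2.32 and 37.9 ± 2.63 TPM) and Stat5b (37.2 ± 0.560 and 35.6 ± 2.94 TPM), the transducers of interleukins 2, 7 and 15, did not pass (adjusted p = 0.171 and 0.394), and both were called lower after median ratio scaling (-0.24 and -0.19, limma adjusted p = 0.00235 and 0.00373).

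Among 3 tested adaptors, Irs2, which links the interleukin-4 receptor to phosphoinositide 3-kinase, fell from 96.5 ± 15.1 to 7.92 ± 0.580 TPM, and Pik3r1, a regulatory subunit of that kinase, rose from 36.8 ± 2.22 to 43.2 ± 2.64 TPM. Of 7 inhibitors 1 rose and 1 fell. Socs3, which binds gp130 and blocks its signal, fell from 327 ± 29.8 to 245 ± 23.2 TPM (limma adjusted p = 0.00185), and the phosphatase gene Ptpn6 rose from 190.3 ± 24.0 to 238 ± 10.7 TPM (adjusted p = 0.00973). Pik3r1 and Ptpn6 no longer passed after median ratio scaling (limma adjusted p = 0.0743 and 0.0557).

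Of the 9 listed targets of these receptors 5 rose and 2 fell, against 33.5% higher and 12.2% lower over all genes. That difference rests on few genes and was not tested. The cyclin genes Ccnd2 (155 ± 8.93 to 257 ± 17.5 TPM) and Ccnd3 (23.7 ± 1.05 to 33.5 ± 2.18 TPM) rose. The other rises, Bcl2, Bcl2l1 and Pim2, are named because they lay nearer the threshold. Their log2 fold changes were 0.26, 0.30 and 0.28 (limma adjusted p = 0.0257, 0.0328 and 0.0252). The survival kinase gene Pim1 fell from 694 ± 76.6 to 233 ± 16.4 TPM and Myc from 375 ± 19.3 to 329 ± 12.3 TPM. The call of Myc was lost with the B cell marker mean in the model (limma adjusted p = 0.41) and without WT 4 and WT 5 together (0.0676).

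Of 11 transcription factor genes known to control receptor chain genes, 6 rose, 2 fell and 3 did not pass, against 45.7% of all genes called. Tbx21 and Eomes, which promote Il2rb, rose 2.52-fold (22.7 ± 3.50 to 57.2 ± 4.39 TPM) and 2.17-fold (138 ± 14.7 to 299 ± 18.2 TPM). Gfi1, a repressor of Il7r, fell from 69.7 ± 8.63 to 37.7 ± 4.65 TPM, and Klf2, a quiescence factor, from 1937 ± 154 to 989.6 ± 50.2 TPM. Eomes is also a natural killer cell marker. The sheddase genes Adam10 (21.4 ± 2.20 to 25.8 ± 2.62 TPM) and Adam17 (28.5 ± 1.06 to 33.0 ± 2.26 TPM), whose products release the interleukin-6 receptor from the surface, both rose (limma adjusted p = 0.0371 and 0.0184). Neither passed after median ratio scaling (limma adjusted p = 0.106 and 0.154) or with the B cell marker mean in the model (0.39 and 0.28 on the log2 scale, limma adjusted p = 0.0746 and 0.0703). Adam10 did not pass with no filter (adjusted p = 0.0634) nor without WT 1, 2 or 3 or Rig1 KO 3 or 4 (adjusted p = 0.0634 to 0.107), and Adam17 did not without Rig1 KO 4 (0.059).

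**Figure D5:**
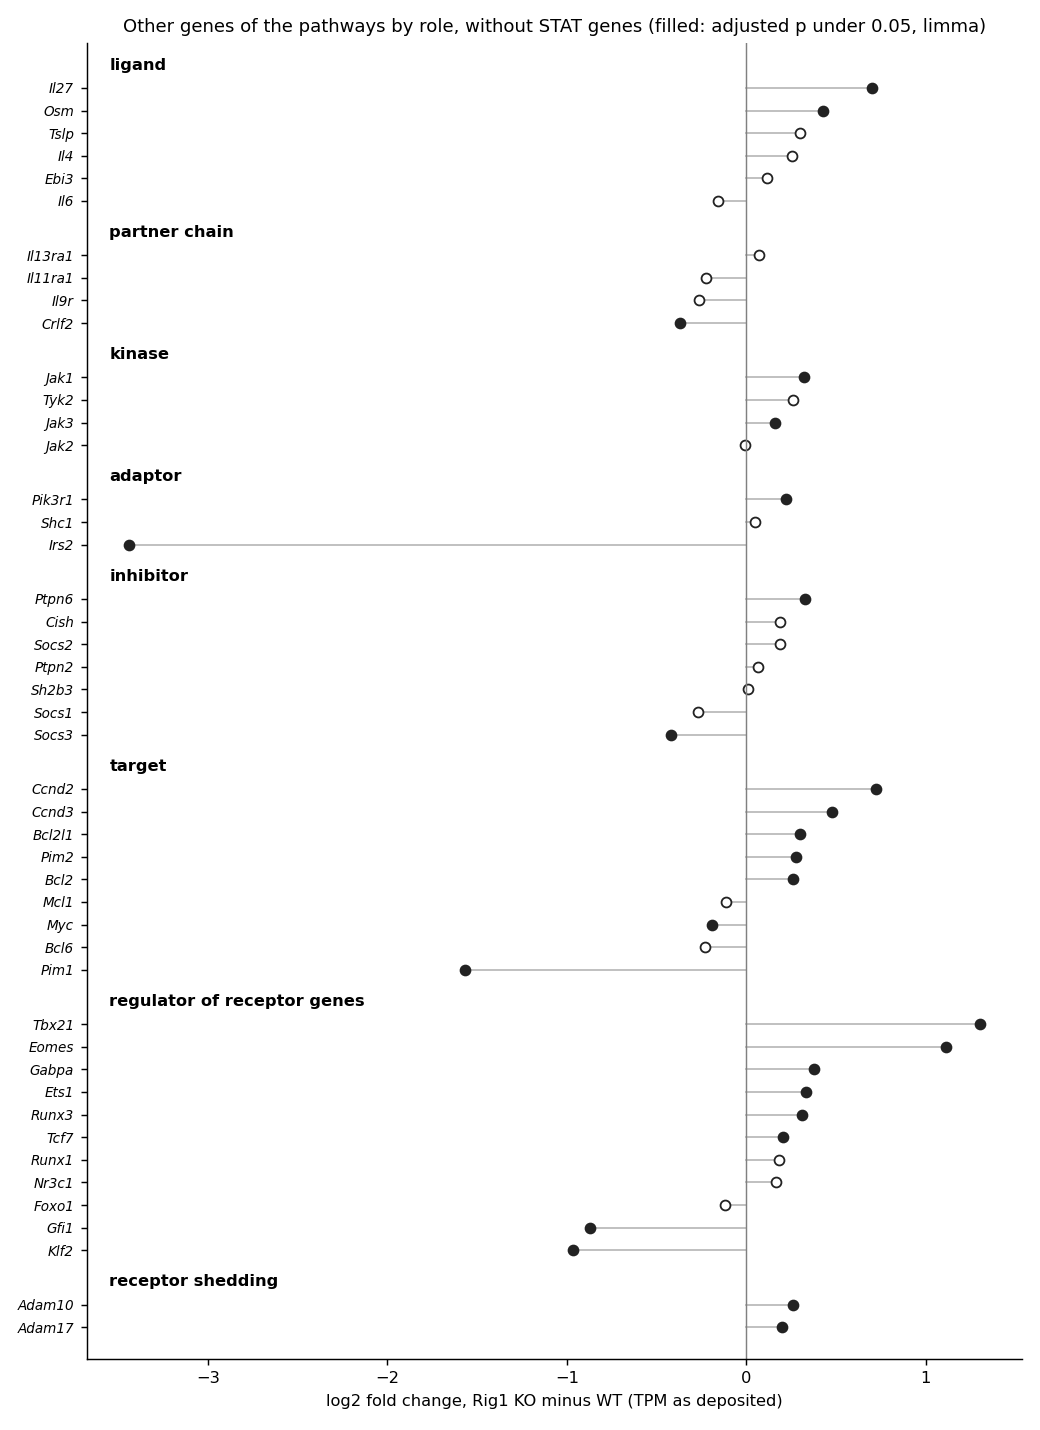
The log2 fold change (horizontal axis, Rig1 KO minus WT) of each tested pathway gene other than the STAT genes is drawn as a point, grouped by role, filled where the limma adjusted p was under 0.05. Irs2 and Pim1 lie farthest to the left and Tbx21 and Eomes farthest to the right.

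The genes whose pattern over the 9 libraries lay closest to each of the 3 most changed chains were found among 9379 others by the root mean square difference of centred log2(TPM + 1) values. For Il7r these were Exoc8 (0.121), Thap2 (0.121) and Tmem18 (0.128). For Il15ra they were Trim12a (0.0700), Acsbg1 (0.0731) and Mtx3 (0.0778), and for Il27ra they were Rinl (0.0393), Arl5c (0.0429) and Arl4c (0.0470). Likeness here covers the difference between the groups as well as the spread within them.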

How the data were processed

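CD8+ T cells of mouse spleens gave 5 WT and 4 Rig1 KO poly(A) RNA libraries, grouped by their titles. The deposited values are TPM, per the file headers, with 1 file for each library. The submitters' processing notes name fastp, featureCounts and mm39 (GRCm39), and the aligner and annotation are not given in the sources used here. Whole reads were recovered from TPM, up to a common divisor, for 100% of 18188 genes. The lengths behind TPM came within 1% of the whole gene span, with introns, for 96.6% of 17478 genes. GENCODE M21 (GRCm38) gave exon lengths, and RefSeq (GRCm38.p6) gave promoter windows.

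limma 3.58.1 (R 4.3.3) was run on log2(TPM + 1) of the 10540 genes that reached 1 TPM in 4 or more libraries, with a mean-variance trend and no covariate. Tests were two-sided, p-values were adjusted by Benjamini-Hochberg over all tested genes, and the threshold was 0.05. The procedure was first tested on simulated data. Fold changes on this scale understate those of low genes. Ratios were compared by exact permutation of the group labels. All 16 pairs of libraries of 1 group differed beyond sampling (chi-square over degrees of freedom 4.60 to 20.1). The labels do not tie libraries to animals, so p-values cover only how far these samples spread, possibly for technical reasons.

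Beside the receptor chains and the targeted gene, the rule named up to 4 genes per pathway role by smallest p, up to 4 per marker list by highest TPM, and 3 nearest in pattern to each of the 3 most changed chains. Other genes are named with the reason, and some genes that the rule names are not reported here. The chains and lists were chosen with earlier results of these data known. Alternatives were other pseudocounts and filters, median ratio scaling, the B cell marker mean as covariate, the replicate number as block, and libraries left out. Scaling recovered reads to library size was chosen after seeing the data.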

Additional observations from a re-analysis of the deposited data

Results flagged for a closer look

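The log2 ratio of Il6ra to Il6st in Rig1 KO 2 was -0.51, apart from the other Rig1 KO libraries (-0.72, -0.70 and -0.70). Its gap to the nearest of them was 0.897 of the group's range, above Dixon's 95% critical value of 0.829. Of 26 groups of values checked this way 1 was picked out, and chance picks out about 1 in 20. The ratio's groups did not overlap with all libraries in, and leaving a library out cannot make them overlap.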

How the results depend on the processing

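Il7r, Il15ra, Il27ra and Il2rb kept their direction and passed under all 17 other settings. Leaving out single libraries gave 6 receptor chains called throughout (5 higher, 1 lower) and 3993 to 4788 genes in all. It gave 3 to 4 ratios of partner chains without overlap (4 without WT 1). Leaving a library out cannot lower that count of ratios, so its steadiness is no check. The number of chains called lower was 2 with median ratio scaling and 2 with reads scaled to library size, and 0 with the B cell marker covariate, under which 2874 of all genes were called. The cause was not tested. With a pseudocount of 1, 2 ratios were without overlap, as Il15ra to Il2rb then overlapped. Some values that passed no test changed sign, Il9r from -0.26. Il2ra ran from -0.045 to 0.22 and Jak2 from -0.060 to 0.035 over single libraries left out, Il2ra was -0.0078 and Shc1 -0.072 with median ratio scaling, Shc1 was -0.020 with reads scaled to library size, Il9r 0.67 and Jak2 0.062 with the covariate, and Il9r 0.035 and Jak2 0.020 without WT 4 and WT 5. Replicate numbers did not pair the libraries (correlations of 0.0972, -0.0601, -0.0996 and -0.0724 for numbers 1 to 4, and 1 of 4 Rig1 KO libraries correlated best with its own number). With the replicate block 6 chains (5 higher, 1 lower) and 4755 genes were called. Depth limits Il2ra most, at 79 to 229 reads per library.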

Other observations

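Il2ra and Il15ra are neighbours on chromosome 2 with 0 protein-coding genes between them, and so are Il4ra and Il21r on chromosome 7 (RefSeq, GRCm38.p6). This comparison was chosen after the values were seen. The log2 ratio of Il15ra to Il2ra was 1.97 ± 0.606 in WT and 2.78 ± 0.227 in Rig1 KO, and the groups overlapped (exact permutation p = 0.0317, two-sided, adjusted p = 0.0635 over the 2 ratios). That of Il21r to Il4ra was 0.03 ± 0.156 and 0.21 ± 0.118 (exact permutation p = 0.127, adjusted p = 0.127). Neither pair of neighbours was thus shown to move apart.

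WT 3 and Rig1 KO 3 had close B cell marker means, 3.31 and 3.49 on the log2 scale. Between this pair of libraries Il7r was at 282 and 683 TPM, Il15ra at 8.09 and 14.1 TPM, Il2rb at 345 and 497 TPM, Il27ra at 283 and 402 TPM, Il6ra at 53.3 and 69.6 TPM, and Il4ra at 78.2 and 69.6 TPM. The TPM ranges of these chains did not overlap between the groups, so any WT and Rig1 KO pair has the direction of the group means. Il2ra, Il21r and Il6st, whose ranges overlapped, are left out here. With 1 library each the differences carry no test.

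Of the 15 pathway genes under the filter, only the gp130 family genes Lif and Osmr did not overlap between the groups. Among all tested genes 38.1% did not overlap, so this is no excess. Lif and Osmr were chosen after their values were seen, and both are low. Lif, a cytokine, measured 1.29 ± 0.647 TPM for WT and 0.393 ± 0.117 TPM for Rig1 KO, and Osmr, the chain that joins gp130 to bind oncostatin M, at 0.127 ± 0.0477 and 0.0192 ± 0.0143 TPM.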
